A study of Rattus norvegicus with 192 samples.

Results

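The transcripts described here encode 36 proteins that hepatocytes secrete into blood: carriers, acute phase proteins, fibrinogen and clotting factors, protease inhibitors and complement. They were taken by gene symbol from the 17483 genes counted in the study, and all 36 symbols were rows of both count tables. Most of these proteins are made constitutively by the liver under hepatocyte transcription factors of the HNF1, HNF4 and C/EBP families. In the acute phase response, cytokines such as IL-6 raise the output of some of them, the positive acute phase proteins, while others such as albumin, transferrin and fetuin-A are made less and are called negative acute phase proteins. Clotting factors and complement proteins circulate mostly as inactive precursors that are cut in cascades, and serpins such as antithrombin hold those proteases in check.

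The study dosed adult male wild-type Crl:CD(SD) rats by daily gavage for 7 days, on postnatal days 56 to 62, and profiled liver, thyroid, hypothalamus and pituitary. The combination group received PFOS at 3 mg/kg body weight per day together with vancomycin at 8 mg/kg, the PFOS group PFOS alone at the same dose, the vancomycin group vancomycin alone at the same dose, and the vehicle group corn oil. PFOS (perfluorooctane sulfonate) is a persistent fluorinated surfactant, and vancomycin is a glycopeptide antibiotic that is poorly absorbed from the gut. RNA from 192 samples, 12 per tissue and treatment, was read by 3′ barcoded bulk sequencing, in which each transcript is tagged at its 3′ end whatever its length.

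Of the 192 libraries, 178 held at least 100000 counts and were kept: 37 of liver, 46 of thyroid, 47 of hypothalamus and 48 of pituitary. The kept livers were 10 combination, 8 PFOS, 10 vancomycin and 9 vehicle libraries with totals between 106742 and 3387946 counts. Libraries of 1 treatment and tissue sat together in 1 row of the plate, and effects of row and treatment cannot be told apart. Listed genes known to respond to PFOS in liver (Cyp2b1, Cyp2b2, Acaa1b, Cyp4a1 and Aldh1a7) were all called higher in the pooled PFOS comparison. They were 5 of 5, beside 2.15% of all 3250 genes tested. Their list was made with earlier results of these data known, so this count is no independent check. Some shallow livers stood apart, as the list of 8 thyroid follicular markers shows, of which 7 or 8 were detected in each liver group. Vehicle libraries 1 and 2, of 163991 and 106742 counts, had summed marker levels of 2214 and 2970 CPM (counts scaled to the library's total), while the other 7 vehicle livers lay between 820 and 944 CPM. Combination library 45 and PFOS libraries 27 and 35 were also shallow and had marker sums of 2532, 2145 and 1678 CPM. With these and the other livers under 250000 counts left out, a setting chosen after seeing the data, the pooled PFOS comparison called the same 2 members.

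In vehicle-dosed liver the 36 members were abundant. Their summed share of all counts was 22.8% ± 1.28 (SD, n = 9) in vehicle livers. Alb, encoding albumin, the main carrier protein of plasma, stood first at 67744 ± 9637 CPM, followed by Tf, the iron carrier transferrin, at 47466 ± 17015 CPM. Tf ranged from 26981 to 71790 CPM and so overlapped Alb, whose lowest vehicle library had 56771 CPM. Serpina1 (alpha-1-antitrypsin, the main inhibitor of neutrophil elastase) at 19820 ± 3684 CPM, Hp (haptoglobin, which binds free haemoglobin) at 17764 ± 3525 CPM and Ahsg (fetuin-A, an inhibitor of mineral deposition) at 14289 ± 2310 CPM came next, with ranges that overlapped. In all, 20 members averaged over 1000 CPM and 4 under 100 CPM. Of those 4, the highest were C6, a component of the membrane attack complex, at 66.0 ± 19.2 CPM, and F5, the cofactor of factor Xa, at 40.8 ± 22.2 CPM. F7, the protease that starts clotting with tissue factor, had 13 counts over the 9 vehicle libraries. C5, the complement component whose cleavage starts the membrane attack complex, had 0 counts in all 37 livers and in every kept library of the other tissues, the cause of which was not tested; 3 counts over the vehicle livers would be 0.704 CPM, the limit that a count of 0 allows. That limit covers counting error only. C5 and F7 were too low to test, which left 34 members tested in liver.

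Across the liver groups, the members' summed share was 20.2% ± 3.06 of counts in combination livers and 20.1% ± 2.58 in PFOS livers, against 23.6% ± 0.94 in vancomycin livers and 22.8% ± 1.28 in vehicle livers. The lowest single value, 13.6%, was in combination library 42. The ranges overlapped: 13.6 to 23.5% with combination and 16.2 to 22.4% with PFOS, against 22.01 to 25.4% with vancomycin and 21.4 to 24.9% with vehicle. In livers of at least 500000 counts the means were 21.4% (n = 6) with combination and 20.03% (n = 3) with PFOS, against 23.8% (n = 5) with vancomycin and 22.2% (n = 3) with vehicle. No test was made of this sum, which Alb and Tf dominate. In bulk tissue, fewer cells of a type and less RNA per cell cannot be told apart.

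The question of whether PFOS changed these transcripts was put to the pooled PFOS comparison, the mean of combination over vancomycin and PFOS over vehicle. Of 34 members tested, Orm1 was higher and Ahsg lower, while 3.6% of all 3250 genes tested were called in either direction (2.15% higher, 1.45% lower; edgeR quasi-likelihood test, adjusted p under 0.05). The members' count of 2 of 34 lies near that background. Without adjustment, 11 members passed 0.05, 10 of them lower, beside 17.1% of all genes. The members' median log2 fold change was -0.18, against -0.01 over all genes, and 28 of 34 members had a negative value, beside 51.3% of all genes. Under the other scalings tried, the members' median stayed between -0.17 and -0.15.

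**Figure D1:**
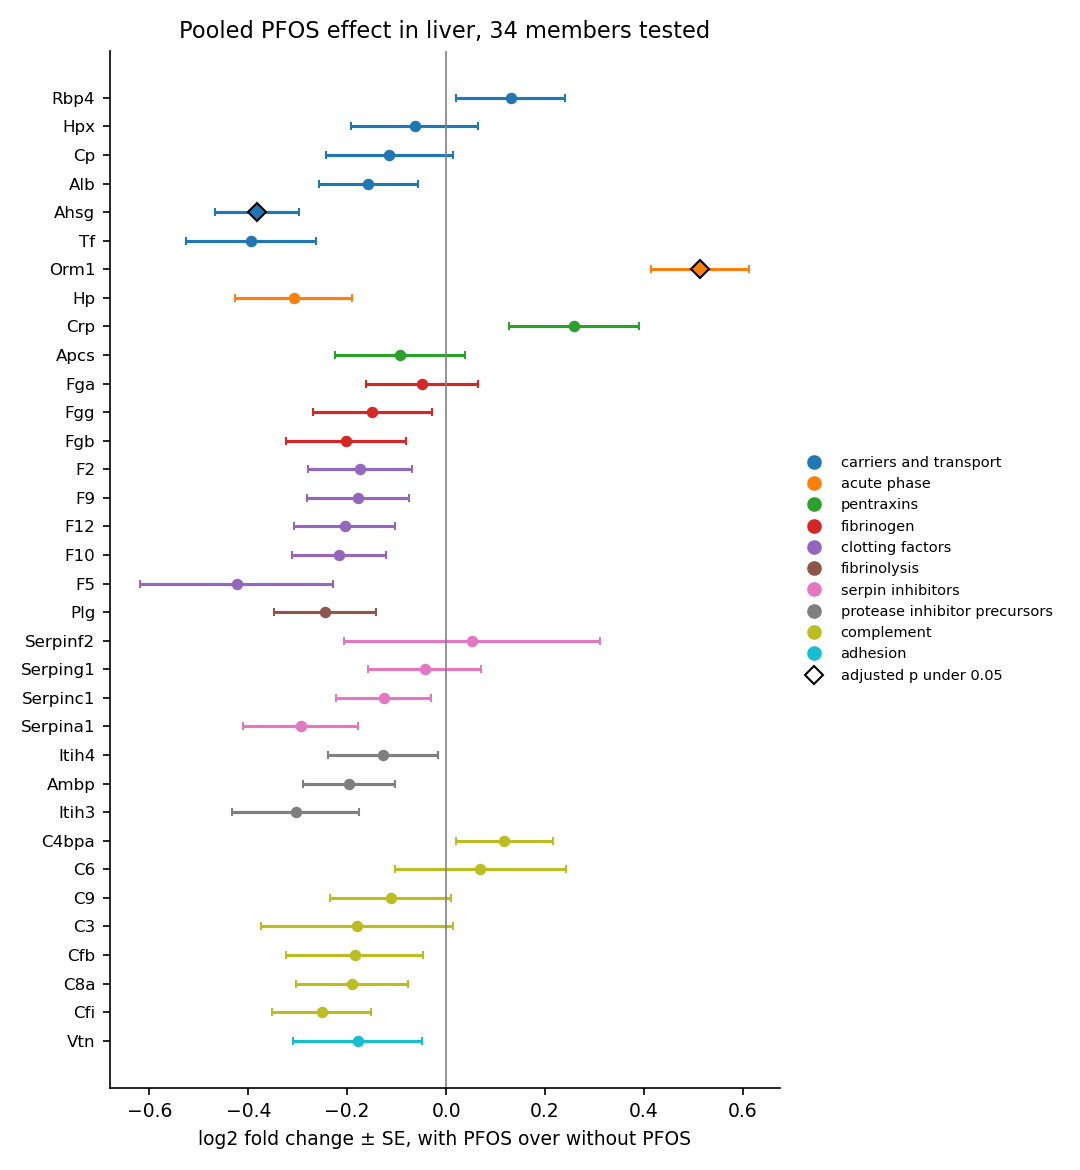
Log2 fold change with its standard error for the 34 members tested in liver, pooled PFOS comparison (libraries with PFOS over libraries without), grouped by role and coloured by it. Diamonds mark adjusted p under 0.05: Orm1 at 0.51 and Ahsg at -0.38, the only members called, while most other points lie below 0.

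Orm1 encodes alpha-1-acid glycoprotein (orosomucoid), a drug-binding plasma protein and a positive acute phase protein of the rat. Its level ran from 516 through a median of 762 to 1194 CPM in combination livers and from 679 through 893 to 1050 CPM in PFOS livers. It ran from 345 through 510 to 713 CPM in vancomycin livers and from 491 through 627 to 778 CPM in vehicle livers. All 8 PFOS livers were above the vehicle mean and 7 of 8 above the highest vehicle library, while 7 of 10 combination livers were above the highest vancomycin library. The pooled log2 fold change was 0.51 ± 0.10 (SE), with an adjusted p of 0.00081806 by edgeR's quasi-likelihood test.

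The simple contrasts, given side by side, share the fit but no libraries. Orm1 rose in combination over vancomycin livers by 0.53 ± 0.13 on the log2 scale (edgeR, adjusted p = 0.037424). Its PFOS over vehicle value was 0.50 ± 0.15 with an adjusted p of 0.10843 in edgeR, and DESeq2 called it. Shares of all genes called are given in this text for edgeR only, so calls by DESeq2 or limma voom have no such share beside them. The interaction, which tests whether the PFOS effect differed with vancomycin, was 0.02 ± 0.20 (edgeR, adjusted p = 0.99968). When any one of the 37 livers was left out, Orm1 remained past the threshold of the pooled comparison in all 37 fits, but past that of combination over vancomycin in 24, with edgeR adjusted p up to 0.12849.

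Ahsg encodes fetuin-A, a negative acute phase protein. Its level ran from 7712 through a median of 10891 to 12441 CPM in combination livers and from 7265 through 10874 to 15925 CPM in PFOS livers. It ran from 11496 through 14086 to 17008 CPM in vancomycin livers and from 12232 through 13475 to 19080 CPM in vehicle livers. All 10 combination livers were below the vancomycin mean and 8 of 10 below the lowest vancomycin library, whereas PFOS and vehicle livers overlapped, with 5 of 8 PFOS livers below the lowest vehicle library. The pooled log2 fold change was -0.38 ± 0.08 (edgeR, adjusted p = 0.0047916). The combination over vancomycin value was -0.47 ± 0.11 (edgeR, adjusted p = 0.03017), and the PFOS over vehicle value was -0.30 ± 0.12 (edgeR, adjusted p = 0.33667).

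The pooled Ahsg call held when any one liver was left out, with edgeR adjusted p up to 0.013952, while the combination over vancomycin call held in 27 of 37 fits, with edgeR adjusted p up to 0.075676. The pooled Ahsg call was lost without the 5 vehicle livers whose barcodes had unusual G and C content (-0.37, edgeR adjusted p = 0.060704). It was lost with no filter on low counts (-0.35, edgeR adjusted p = 0.28001) and in livers of at least 500000 counts (-0.37, edgeR adjusted p = 0.21295). It was also lost when every library was kept whatever its depth, with -0.47 and an edgeR adjusted p of 0.32248, as was the Orm1 call, with 0.44 and 0.1448.

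**Figure D2:**
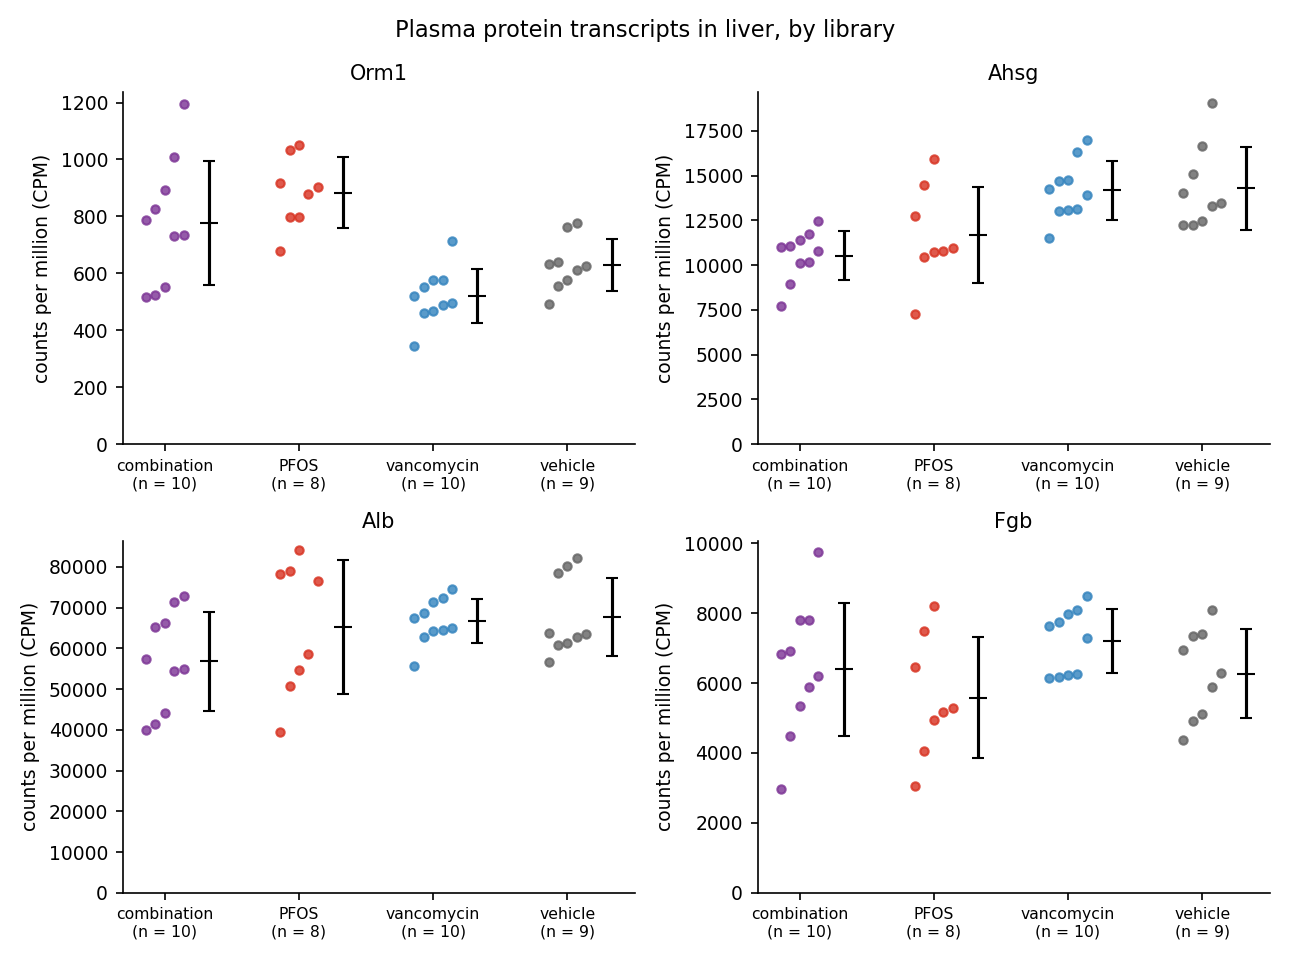
CPM of Orm1, Ahsg, Alb and Fgb in each kept liver library, one point per library, with the mean and SD beside each group. Orm1 is at 679 CPM or more in every PFOS liver and at 778 CPM or less in every vehicle liver. It runs from 516 to 1194 CPM in combination livers and is at 713 CPM or less in every vancomycin liver. For Ahsg, 8 of 10 combination livers lie below the lowest vancomycin library. Alb and Fgb overlap in all 4 groups.

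The promoters of these genes and of the fibrinogen pair described later are printed because the members are known targets of liver and acute phase factors. They come from RefSeq on the GRCr8 build, which is not the build of the count tables, and run from 250 bases before to 50 after the gene start, 5′ to 3′ on the gene's strand; 32 of 36 members had one. In the first pair, capitals mark matches to the C/EBP letters TTGCNNAA on either strand. Orm1 lies on chr5:81788259-81788558 (plus strand) and Ahsg on chr11:91632534-91632833 (minus strand).
Orm1: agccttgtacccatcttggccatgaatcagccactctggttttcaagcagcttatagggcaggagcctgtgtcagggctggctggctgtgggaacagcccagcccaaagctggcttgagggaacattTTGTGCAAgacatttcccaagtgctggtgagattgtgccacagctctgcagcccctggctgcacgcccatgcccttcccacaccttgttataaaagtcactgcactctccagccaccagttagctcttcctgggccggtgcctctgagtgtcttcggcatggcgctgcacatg
Ahsg: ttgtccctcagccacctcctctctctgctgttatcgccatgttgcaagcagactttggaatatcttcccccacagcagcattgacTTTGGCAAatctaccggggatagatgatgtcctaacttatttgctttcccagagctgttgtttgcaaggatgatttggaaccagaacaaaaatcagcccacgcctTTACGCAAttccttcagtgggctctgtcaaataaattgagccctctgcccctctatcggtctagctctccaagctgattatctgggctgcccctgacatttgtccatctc
The Orm1 match starts 123 bases before the gene start, and the Ahsg matches 165 and 60 bases before it. Those letters stood in a promoter of 16 of 32 members (50%), against 10.6% of all 33469 promoters of the same length. In all such shares here, a member counted once if any of its promoters matched, whereas the background counted each promoter. Searched likewise on both strands, the HNF1 letters GTTAAT stood in 8 of 32 (25%) against 7.45%, and the STAT letters TTCNNNGAA in 6 of 32 (18.8%) against 8.87%. A match is a description of letters, not a binding site.

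Among the other carriers, none passed the test. Alb had 56811 ± 12162 CPM in combination and 65188 ± 16383 CPM in PFOS livers, against 66699 ± 5427 CPM in vancomycin and 67744 ± 9637 CPM in vehicle livers (pooled log2 -0.16 ± 0.10, edgeR adjusted p = 0.45032). All 4 groups overlapped. Tf averaged 38770 ± 8157 and 36633 ± 11380 CPM with combination and PFOS, against 49623 ± 8313 and 47466 ± 17015 CPM with vancomycin and vehicle. Its pooled value of -0.40 ± 0.13 had an edgeR adjusted p of 0.077498, while DESeq2 and limma voom called it lower. Hpx, the haem carrier haemopexin, had -0.06, Cp, the copper-carrying ferroxidase ceruloplasmin, -0.11, and Rbp4, the retinol carrier, 0.13. Of the 6 carriers, 5 had negative values.

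The classical acute phase genes of the set did not share a direction. Hp, a positive acute phase gene like Orm1, averaged 17646 ± 4574 CPM with combination and 13843 ± 3738 CPM with PFOS, against 20463 ± 1970 CPM with vancomycin and 17764 ± 3525 CPM with vehicle. Its pooled value was -0.31 ± 0.12 (edgeR, adjusted p = 0.14143). The pentraxin Crp, C-reactive protein, had 0.26 ± 0.13 (edgeR, adjusted p = 0.30826) and Apcs, serum amyloid P component, -0.09 ± 0.13. Across the 37 livers, with group means removed, Orm1 and Hp had a Pearson r of 0.05 and a Spearman rho of -0.04 (permutation p = 0.74671 and 0.8013, unchanged by adjustment over 5 pairs). In the 32 livers of usual barcode composition r was 0.21, and in the 17 livers of at least 500000 counts 0.54.

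The 3 fibrinogen chains, which assemble into the protein that thrombin turns into fibrin, did not pass the test with PFOS. Fgb, the beta chain, had 6396 ± 1898 and 5585 ± 1719 CPM with combination and PFOS, against 7203 ± 914 and 6266 ± 1280 CPM with vancomycin and vehicle. Fgg, the gamma chain, had 3251 ± 767 and 3223 ± 937 CPM, against 3840 ± 494 and 3200 ± 824 CPM in the same order. Fga, the alpha chain, had 2750 ± 798 and 2589 ± 716 CPM, against 2873 ± 457 and 2565 ± 445 CPM. Their pooled log2 values were -0.20, -0.15 and -0.05, with edgeR adjusted p from 0.41483 to 0.89163.

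Between individual livers, Fgb and Fgg varied together. With group means removed, log2(CPM + 1) of Fgb and Fgg had a Pearson r of 0.85 and a Spearman rho of 0.84 over 37 livers. The permutation p was 1e-05 for each, the smallest that 100000 resamples can give, and 2.5e-05 and 5e-05 adjusted over the 5 pairs computed. Without the 2 livers farthest from the median r was 0.85, in the 32 livers of usual barcode composition 0.86, and in the 17 deepest 0.96. Fga followed them less closely: r was 0.47 with Fgb and 0.43 with Fgg (permutation p = 0.00343 and 0.0073199, adjusted 0.0057166 and 0.0091499). Spearman's rho was 0.27 and 0.29 (adjusted permutation p = 0.12862 for both), and without the 2 farthest livers r was 0.28 and 0.27. In the 32 livers of usual barcode composition r was 0.58 and 0.63, and in the 17 deepest 0.62 and 0.70, so the size of these relations depended on which livers were kept. Alb and Ahsg had an r of 0.72 and a rho of 0.64 (permutation p = 1e-05 and 5.9999e-05, adjusted 2.5e-05 and 0.00015), and r was 0.59 without the 2 farthest livers, 0.70 at usual barcode composition and 0.52 in the deepest. Depth and composition are shared by all genes of a library, and their part in these relations was not tested.

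**Figure D3:**
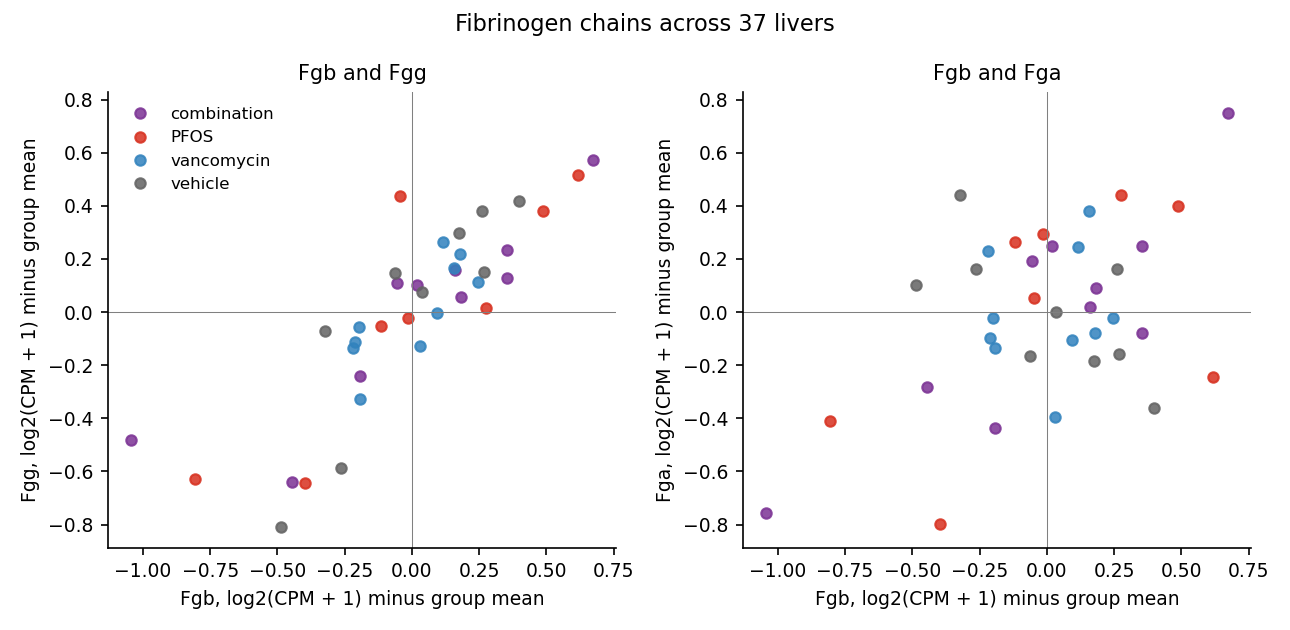
Deviation of log2(CPM + 1) from the group mean for Fgb on the x axis and Fgg (left) or Fga (right) on the y axis, one point per liver, coloured by group, 37 livers. Fgb and Fgg lie along a line (r = 0.85), while Fgb and Fga scatter more widely (r = 0.47).

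Fgb and Fgg lie near each other on chromosome 2, at chr2:170700826-170701125 (minus strand) and chr2:170652833-170653132 (plus strand) for the promoters. In this pair, capitals mark the letters CTGGGAA of the type II IL-6 response element, searched on both strands.
Fgb: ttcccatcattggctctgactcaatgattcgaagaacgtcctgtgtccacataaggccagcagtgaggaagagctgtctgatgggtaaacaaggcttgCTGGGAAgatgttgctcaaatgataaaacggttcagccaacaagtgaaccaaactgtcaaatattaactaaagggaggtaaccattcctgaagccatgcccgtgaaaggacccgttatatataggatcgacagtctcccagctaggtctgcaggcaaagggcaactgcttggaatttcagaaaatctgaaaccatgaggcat
Fgg: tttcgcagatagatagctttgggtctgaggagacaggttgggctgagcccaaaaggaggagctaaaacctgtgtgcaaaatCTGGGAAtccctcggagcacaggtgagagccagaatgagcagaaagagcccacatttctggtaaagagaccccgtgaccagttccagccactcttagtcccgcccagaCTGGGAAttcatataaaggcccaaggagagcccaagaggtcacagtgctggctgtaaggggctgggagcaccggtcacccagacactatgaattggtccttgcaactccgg
Fgb has 1 such match, 152 bases before the start, and Fgg 2, at 169 and 61 bases. They stood in a promoter of 10 of 32 members (31.2%), against 11.3% of all promoters, counted as before, and can overlap the STAT letters. Fgb also holds the C/EBP, HNF1 and STAT letters, and Fgg none of these 3.

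Clotting factors and the fibrinolytic precursor plasminogen had values below 0 throughout without passing the test. The 5 tested clotting factors ran from -0.42 for F5 to -0.17 for F2 (prothrombin), with F10, the protease that activates prothrombin, at -0.22 ± 0.09 (edgeR, adjusted p = 0.21282). F9, the factor missing in haemophilia B, had -0.18 and F12, the contact-pathway starter, -0.20. Plg, the precursor of plasmin, had -0.25 ± 0.10 (edgeR, adjusted p = 0.18831). F5 rests on few reads, with a median of 16 counts per liver.

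Among the inhibitors, Serpina1 had -0.29 ± 0.12 (edgeR, adjusted p = 0.15679) and Serpinc1, antithrombin, -0.13 ± 0.10. Serping1, the C1 inhibitor, had -0.04 ± 0.11. The precursors of inter-alpha-inhibitor and related proteins had -0.30 for Itih3, -0.20 for Ambp and -0.13 for Itih4. Serpinf2, alpha-2-antiplasmin, had 0.05 ± 0.26. None of these 7 genes passed the test.

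None of the 7 tested complement genes passed, and 5 of 7 had negative values. Cfi, the protease that inactivates C3b, had -0.25 ± 0.10 (edgeR, adjusted p = 0.15758), and C8a of the membrane attack complex -0.19. C4bpa, the C4b-binding protein, had 0.12 ± 0.10. Vtn, vitronectin, which binds cells and the terminal complement complex, had -0.18 ± 0.13.

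C3, the central protein of the cascade, was the most variable of the abundant members. Its within-group SD was 0.68 on the log2 scale, where counting alone gives 0.04, beside 0.24 for Ahsg, 0.25 for Ambp and 0.27 for Alb. It ran from 1316 to 6200 CPM with combination and from 1604 to 7046 CPM with PFOS, against 2345 to 5563 CPM with vancomycin and 2158 to 7851 CPM with vehicle. The 2 highest vehicle values, 7287 and 7851 CPM, were libraries 1 and 2, and the highest PFOS value, 7046 CPM, was library 35. Serpinf2 had an SD of 0.82, with 537 and 778 CPM in vehicle libraries 1 and 2 and 79 to 145 CPM in the other 7 vehicle livers. These are the shallow libraries with high thyroid marker sums, and the part of depth or of RNA from other samples in these levels was not tested.

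Related genes outside the set came from lists made with earlier results of these data known. Their calls in the pooled PFOS comparison stand beside 3.6% of all 3250 genes called (2.15% higher, 1.45% lower). Of 19 tested complement genes, C8b, the partner of C8a, fell by 0.45 on the log2 scale ± 0.11 (edgeR, adjusted p = 0.01329), with 325 ± 75.7 and 293 ± 87.2 CPM with combination and PFOS against 417 ± 50.6 and 412 ± 80.8 CPM with vancomycin and vehicle. Of 21 other secreted plasma proteins, Fetub (fetuin-B, a relative of Ahsg) fell by 0.47 ± 0.13 (edgeR, adjusted p = 0.035819); the list's median was -0.17. Of 12 coagulation and fibrinolysis genes, 6 of IL-6 signalling and acute phase control and 5 hepatocyte transcription factors, none was called. Of 25 hepatocyte genes outside the plasma proteins, Cyp3a2 and Hpd rose, by 0.82 and 0.33, and the list's median was -0.01. Blood cell markers, of which 9 to 11 of 11 were detected in each group, summed to 4074 ± 1337 CPM with combination and 6510 ± 1454 CPM with PFOS, against 5140 ± 1002 CPM with vancomycin and 6913 ± 4360 CPM with vehicle. Macrophage and Kupffer cell markers, 11 of 11 detected, summed to 379 ± 122 and 398 ± 145 CPM, against 454 ± 107 and 417 ± 105 CPM in that order, and no gene of the macrophage, blood, endothelial and stellate cell lists was called. The part of these cells in the members' values was not tested.

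PFOS over vehicle alone gave 0 of 34 members called by edgeR, beside 0.831% of all genes, with 5 members under an unadjusted p of 0.05, beside 10.9% of all genes, and 1, Orm1, called by DESeq2. Combination over vancomycin gave 2, Orm1 and Ahsg, beside 0.923% of all genes (0.831% higher, 0.0923% lower). That count changed with single livers: both remained called in 20 of 37 fits that left out 1 liver, and none in 6. The 6 livers were vancomycin libraries 13, 16, 21 and 24 and combination libraries 38 and 46. Over all 37 fits the log2 fold change ran from 0.46 to 0.60 for Orm1 and from -0.50 to -0.43 for Ahsg, while the adjusted p crossed the threshold. Combination over vehicle gave 0 members by edgeR beside 0.769% of all genes, with 2 members under an unadjusted p of 0.05, beside 9.54% of all genes, and 1, Ahsg, called by DESeq2. These shares are those of edgeR, and the shares called by DESeq2 are not given here.

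Vancomycin left no called member. Vancomycin over vehicle, combination over PFOS, the pooled vancomycin comparison and the interaction each gave 0 of 34 members by edgeR, by DESeq2 and by limma voom, and 0% of all 3250 genes by edgeR. At an unadjusted p under 0.05 only the pooled vancomycin comparison had any members, 2 of 34 beside 4.89% of all genes: Hp, with a value of 0.29 ± 0.12, and Orm1, with -0.21 ± 0.10 (edgeR, adjusted p = 0.95725 and 0.98671). The members' pooled vancomycin median was 0.09, against -0.01 over all genes.

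The other tissues were examined for local expression and for spillover of liver transcripts. Among vehicle libraries all 33 members that could be tested were higher in liver than in thyroid, in hypothalamus and in pituitary (edgeR, adjusted p under 0.05 in each), where 26.6%, 32.9% and 30.9% of all 6560 genes were called higher in liver. The set was drawn up as liver-made proteins, and members at or near 0 elsewhere, such as Orm1 in hypothalamus and C9 in pituitary, passed the filter on low counts only through liver. This direction therefore describes the choice of genes and the filter, and is no test of them. Without TMM factors the median of all genes moved by -1.09, -1.40 and -0.82 in these contrasts, and all 33 members stayed called higher in liver.

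As a share of the vehicle liver's mean CPM, the median over the 34 members with at least 100 counts in liver was 1.37% in thyroid, 0.0372% in hypothalamus and 0.0588% in pituitary. The 23 hepatocyte genes outside the plasma proteins, filtered likewise, had 1.56%, 0.177% and 0.1004%. In thyroid nearly all members lay close to that level, with 31 of the 34 between 0.485% and 3.66%: Alb had 0.735%, Ahsg 1.37%, Fgb 1.13% and Hp 2.58%. Thyroid and liver shared a plate, and hypothalamus and pituitary were on the other. In the reverse direction, thyroid follicular markers summed to 1245 ± 788 CPM in vehicle liver, against 48767 ± 12047 CPM in vehicle thyroid. The source of these low levels was not tested.

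**Figure D4:**
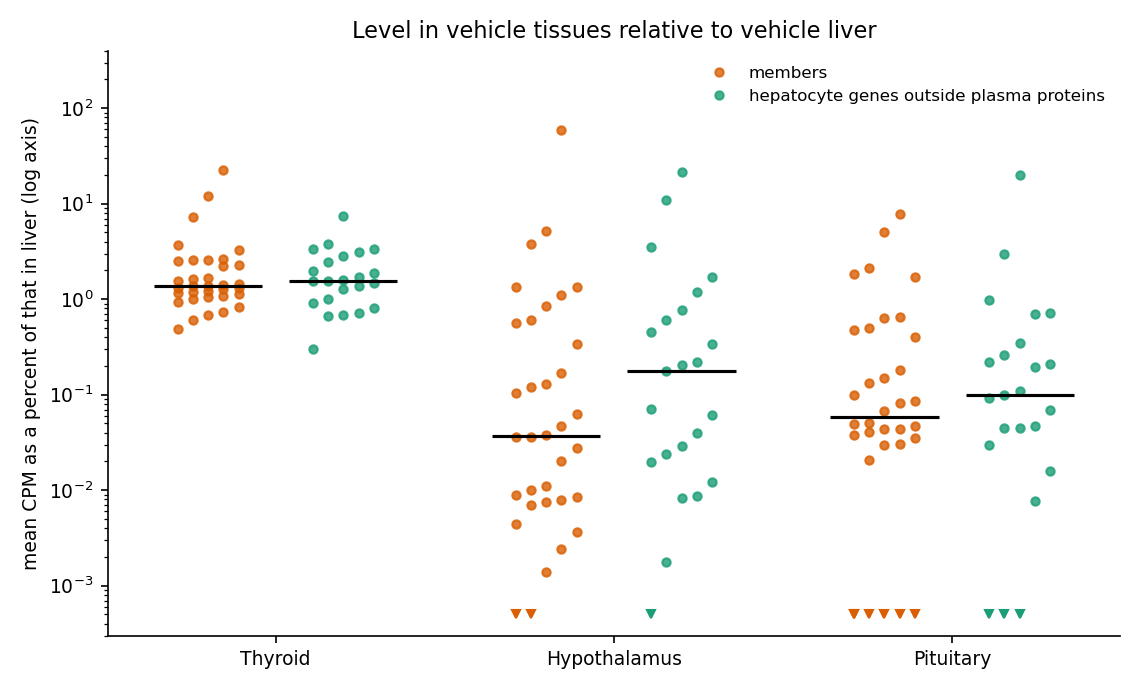
Mean CPM in vehicle thyroid, hypothalamus and pituitary as a percent of the mean in vehicle liver (log axis), one point per gene with at least 100 liver counts, 34 members and 23 hepatocyte genes. Bars are medians and triangles at the foot mark genes with 0 counts. Thyroid points gather around 1.37 and 1.56%. Single members reach 22.6% in thyroid and 59.4% in hypothalamus, and single hepatocyte genes 7.46% and 21.7%.

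Single members stood above that level, and so did single genes of the hepatocyte list. Over 5% of their liver level were Asgr1 in thyroid (7.46%), Aldh1l1 and Ass1 in hypothalamus (21.7% and 10.9%) and Ass1 in pituitary (19.8%). Serping1, which endothelial cells and fibroblasts also make, was at 96.2 ± 16.7 CPM in vehicle thyroid, 22.6% of its liver level, at 5.18% in hypothalamus and at 7.86% in pituitary. Cfb, factor B of the alternative complement pathway, stood at 155 ± 46.2 CPM in vehicle thyroid, 12.0% of liver, and Cp at 57.2 ± 10.2 CPM, 7.33%. Cp also reached 5.06% in pituitary, at 39.5 ± 7.12 CPM. Itih3 reached 1949 ± 397 CPM in vehicle hypothalamus against 3283 ± 683 CPM in vehicle liver, which is 59.4% by CPM, while it was at 16.2 ± 7.40 CPM in pituitary. With TMM factors, its liver over hypothalamus log2 fold change was 2.05 ± 0.12 (edgeR, adjusted p = 1.709e-23), a larger difference than the CPM values give because the factors move all genes in this contrast. Tf, which oligodendrocytes also express, had 1802 ± 365 CPM in vehicle hypothalamus, 3.80% of liver, and Vtn 101 ± 17.1 CPM, 1.33%. In contrast Orm1 and Crp had 0 counts in vehicle hypothalamus, and Alb had a median of 4.67 CPM, with 1 library at 45.55 CPM.

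Outside liver, 3 members were called in the pooled PFOS comparison, and none of these calls held with log2 depth as a covariate. In thyroid and hypothalamus, median depth was lower in both groups with PFOS than in both groups without. That fit therefore cannot fully separate depth from PFOS, and how many of all genes lost their calls in it is not given here. In thyroid 1 of 22 tested members was called, a share below the 13.1% of all genes (5.3% higher, 7.8% lower). It was Cfb, at 222 ± 63.2 CPM with combination (152 to 324) and 186 ± 51.8 CPM with PFOS (114 to 256), against 146 ± 35.2 CPM with vancomycin (98.9 to 209) and 155 ± 46.2 CPM with vehicle (74.8 to 228). The groups overlapped. Its pooled log2 fold change was 0.41 ± 0.11 (edgeR, adjusted p = 0.014404), and with log2 depth as a covariate 0.28 (edgeR, adjusted p = 0.54048). Median depth was 383435 and 484695 counts with combination and PFOS, against 555940 and 841097 with vancomycin and vehicle. Cfb was also called in combination over vancomycin (0.57 ± 0.16, edgeR adjusted p = 0.037361), beside 3.26% of all genes (0.845% higher, 2.42% lower). In liver its pooled value was -0.18 ± 0.14.

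In hypothalamus 2 of 7 tested members were called in the pooled PFOS comparison, both higher, beside 20.5% of all genes in either direction (9.07% higher, 11.4% lower). Tf averaged 2273 ± 438 CPM with combination (1764 to 3220) and 2312 ± 492 CPM with PFOS (1614 to 3141), against 1793 ± 427 CPM with vancomycin (1180 to 2600) and 1802 ± 365 CPM with vehicle (1334 to 2491). Its log2 fold change was 0.32 ± 0.09 (edgeR, adjusted p = 0.0067097). Vtn averaged 113 ± 19.1 and 122 ± 29.1 CPM with combination and PFOS, against 94.1 ± 26.9 and 101 ± 17.1 CPM with vancomycin and vehicle, with 0.24 ± 0.08 (edgeR, adjusted p = 0.026175). With log2 depth as a covariate both calls were lost, at 0.20 for Tf (edgeR, adjusted p = 0.1539) and 0.12 for Vtn (edgeR, adjusted p = 0.41841). Median depth was 531350 and 662537 counts with combination and PFOS, against 751640 and 875789 with vancomycin and vehicle. The 7 oligodendrocyte markers summed to 7847 ± 936 and 8498 ± 1023 CPM, against 8566 ± 1500 and 8439 ± 923 CPM in that order, and 3 of the 7 (Mobp, Mbp and Mag) were called lower. Itih3 had 0.15 ± 0.08 (edgeR, adjusted p = 0.20202), and limma voom called it higher.

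**Figure D5:**
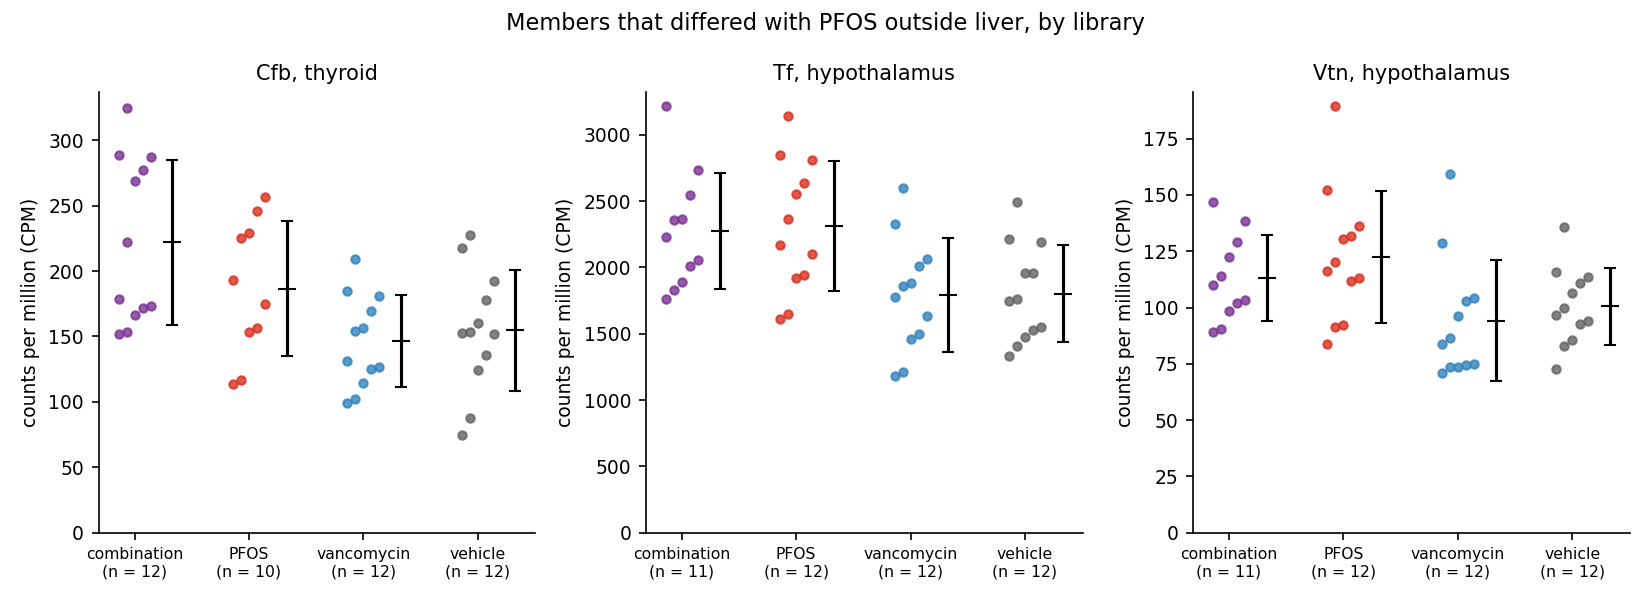
CPM of Cfb in thyroid and of Tf and Vtn in hypothalamus, one point per kept library, with the mean and SD beside each group. Group means are higher with combination and PFOS than with vancomycin and vehicle, and the points overlap in each panel.

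In pituitary none of 8 tested members was called in the pooled PFOS comparison by edgeR, DESeq2 or limma voom, and none had an unadjusted p under 0.05, beside 1.44% of all genes called and 9.82% under that unadjusted p. The pooled vancomycin comparison called no member in thyroid, hypothalamus or pituitary and 0% of all genes in each (edgeR), with 1 of 22, 2 of 7 and 0 of 8 members under an unadjusted p of 0.05, beside 4.66%, 5.85% and 3.31% of all genes, and none called by DESeq2 or limma voom.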

How the data were processed

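The authors deposited raw counts per gene, whole numbers in a table per plate of 96 libraries, from 3′ barcoded sequencing per the labels' protocols. Per the submitters' processing notes, BWA 0.7.4.4 and the rn6 build were used; their roles are not given in the sources used here. The names of the deposited tables carry the abbreviation umi, but no protocol text states whether reads or unique molecules were counted. CPM was computed from each library's total. Libraries under 100000 counts were left out. Each tissue was fitted with all 4 treatment groups in edgeR 4.0.16 (R 4.3.3; TMM factors, filterByExpr with a minimum count of 10, quasi-likelihood F test, Benjamini-Hochberg adjustment over all genes, threshold 0.05). The same script was tested on simulated liver counts, PFOS against vehicle. It called 26.9% of 67 genes changed 1.5-fold, 70.1% of 67 changed 2-fold and 96.9% of 65 changed 4-fold. Of 2982 unchanged genes it called 0.101%. Changes of 1.5-fold were thus mostly missed there, and a member that did not pass the test may still differ. DESeq2 1.42.0, limma 3.58.1 voom, other scalings, filters, depths and covariates, and leaving out each library were alternatives. The members and gene lists were chosen with earlier results of these data known. Members called in any liver contrast, the fibrinogen chains, Alb and Orm1, members called outside liver or over 5% of their liver level, and up to 3 called genes per list were named by rule; further members are named to account for the whole set. Nothing in the labels says that replicates are separate animals, so p-values measure the spread between these samples.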

Additional observations from a re-analysis of the deposited data

Results flagged for a closer look

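In liver, 7 values stood apart from the rest of their group by Dixon's 95% criterion, of 140 liver groups of 1 member and 1 treatment examined; chance alone gives about 1 such group in 20. F10 had its lowest combination library, 42, at 376 CPM, with the next at 636 CPM. Library 42 also had the lowest summed share of the members, 13.6%. C9, a pore-forming complement protein, had its highest combination library at 688 CPM, with the next at 470 CPM. The carriers Hpx and Rbp4 had their high vehicle value in the same library, 7. Hpx was at 9827 CPM there beside a next value of 6344 CPM, and Rbp4 at 12120 CPM beside 7488 CPM. F5 reached 66.4 CPM in a vancomycin library, with the next at 41.7 CPM. F7 reached 8.75 CPM in a combination library and 13.8 CPM in a vancomycin library, where each group held 18 F7 counts in all.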

How the results depend on the processing

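Of 202 recomputed counts of called members and ratios, 181 stayed within 1.5 times of the value reported, or at 0 with it. None reversed, and the cause of the 21 changes was not tested. Many of these counts began at 0 called members, or at all 33 between vehicle tissues. The total therefore says little about how stable the calls were. The share of all genes called under each setting is not given here, so a change in a member count has no background beside it. In liver, PFOS over vehicle gave 1 with DESeq2. Combination over vehicle gave 1 with DESeq2. Combination over vancomycin (2) gave 1 without TMM factors, 1 with only those groups fitted, 1 with well column as a factor, and 0 with no filter on low counts, with a minimum of 500000 counts, with a minimum of 250000 counts (added after seeing the data), with all libraries kept, and when livers with unusual barcode GC content were dropped; leaving out single livers, also added after seeing the data, gave 0 to 2. The pooled PFOS comparison (2) gave 1 with no filter, 1 with a minimum of 500000 counts, 1 without libraries of unusual barcode GC content, 0 with all libraries kept, 4 with log2 depth as a covariate (adding Hp and Serpina1), and 2 to 3 with single livers left out. Thyroid pooled PFOS (1) gave 0 with no filter and 0 with log2 depth. Hypothalamus pooled PFOS (2) gave 1 with a minimum of 500000 counts, 1 with barcode GC as a covariate, 1 when unusual barcode GC content was left out, and 0 with log2 depth. The treatments share no sample number, so a block was possible only between vehicle tissues: with the replicate block 33 members were called higher in liver in each contrast, as without it. The numbers shared across tissues were not taken to pair the samples, since no tissue pair had every same-numbered vehicle pair correlated over 0.1. Thyroid and hypothalamus came closest, with 11 of 12 (median r 0.27, against -0.04 between other numbers), and the other tissue pairs had 1 of 9 to 4 of 12. That cutoff does not exclude pairing. Same-numbered vehicle samples of thyroid and hypothalamus also shared row and column on their plates, and animal and well position cannot be told apart. Counting error is largest for F7 and F5 among the members with counts in liver.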
